A study of Mus musculus with 9 samples.

Results

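The 10 genes described here encode plasma membrane or lysosomal carriers that move amino acids and taurine with sodium ions or protons. They are *Slc1a3*, *Slc1a4* and *Slc1a5* of the SLC1 family, *Slc38a1*, *Slc38a2*, *Slc38a3* and *Slc38a4* of the SLC38 family, *Slc6a6* and *Slc6a9* of the SLC6 family, and *Slc36a1* of the SLC36 family. They were taken by gene symbol from the 55416 genes counted in each library, and all 10 passed the filter on low counts that left 14903 genes for testing. RNA had been sequenced from lenses of E16.5 mouse embryos, with 1 library from the single pair of lenses of each embryo, for 4 *Atf4* null and 5 wildtype embryos. The null embryos were homozygous for *Atf4* tm1Tow, in which a neomycin phosphotransferase cassette replaces exons 3 and 4, and the wildtype embryos were littermates on the same mixed C57Bl/6 and 129 background. The allele is not limited to the lens, so every tissue of the null embryo lacks intact *Atf4*. The comparison asks which transporter transcripts differ in the lens when ATF4, a transcription factor of the integrated stress response, is missing.

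Cells take up most neutral amino acids through carriers that spend the sodium gradient, and some of these carriers exchange one amino acid for another rather than add to the total. The SLC38 proteins bring glutamine and small neutral amino acids into the cell, the SLC1 proteins carry glutamate or exchange serine, alanine and glutamine, and SLC36A1 exports amino acids from the lysosome together with protons. The lens has no blood supply of its own and takes amino acids and taurine from the surrounding humors, and taurine serves there as an abundant organic osmolyte. ATF4 is known to bind elements of the form TGATGCAA near genes of amino acid uptake and synthesis, often with a partner of the C/EBP family.

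Gene counts ran from 8409779 to 8906996 per wildtype library and from 7440807 to 8696699 per null library. Levels are given as CPM, counts relative to the library total scaled by TMM factors, and as FPKM, which divides CPM by the summed exon length, where genes are compared with each other. Differences are log2 fold changes of null over wildtype with their standard error (SE), from the quasi-likelihood test of edgeR, and p-values are adjusted over the 14903 genes by the Benjamini-Hochberg method. *Atf4* itself stood at 138 ± 13.8 CPM in wildtype (SD, n = 5) and 5.79 ± 4.65 CPM in null lenses (SD, n = 4), a log2 fold change of -4.55 (edgeR adjusted p = 9.75e-05). Marker genes of other tissues stood out most in 2 libraries. Skeletal muscle and mesenchyme markers took 0.970% and 1.49% of the gene counts in wildtype replicate 5, against at most 0.00335% and 0.00867% in the other wildtype libraries. In the null libraries muscle markers took 0.00255% to 0.0135%, and mesenchyme markers took 0.0192% to 0.0573%, above every wildtype library except replicate 5. Neural retina markers took 0.161% in null replicate 1, against 0.0292% to 0.0530% in wildtype and 0.0434% to 0.0985% in the other null libraries. None of the 15 retina markers was at 0 in all libraries, all 15 had a log2 fold change above 0, and 5 of them rose. All 7 tested erythroid and all 7 tested vascular endothelium markers had values below 0, with medians of -0.95 and -0.68, and 1 erythroid marker fell. Lens fiber markers had 4 of 12 tested genes lower, with *Lim2* at 0 in every library, and lens epithelium markers had 5 of 11 lower and 1 higher. At the same adjusted p below 0.05, 3.67% of all genes tested were lower and 2.23% higher.

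In null lenses 2 of the 10 transporters fell, *Slc1a4* and *Slc38a3*, and 1 rose, *Slc6a6*. The other 7 did not pass the threshold of 0.05 on the adjusted p. Of all genes tested, 5.90% were called in either direction, 3.67% as lower and 2.23% as higher. At an unadjusted p below 0.05, *Slc38a2* and *Slc1a3* joined the 3 called genes, where 19.6% of all genes tested had such a p. In 4 transporters, *Slc1a4*, *Slc38a3*, *Slc6a6* and *Slc38a2*, the CPM of the genotypes did not overlap, as was so for 10.2% of all genes tested. For 3 of these the null values were the lower ones (5.58% of all genes) and for 1, *Slc6a6*, the higher ones (4.65%). The log2 fold changes were above 0 for 5 and below 0 for 5 transporters, from -1.44 to 1.21, with a median of -0.09 against 0.000716 over all genes tested. Without wildtype replicate 5 the count of called transporters was 4, and without null replicate 1 it was 3.

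**Figure D1:**
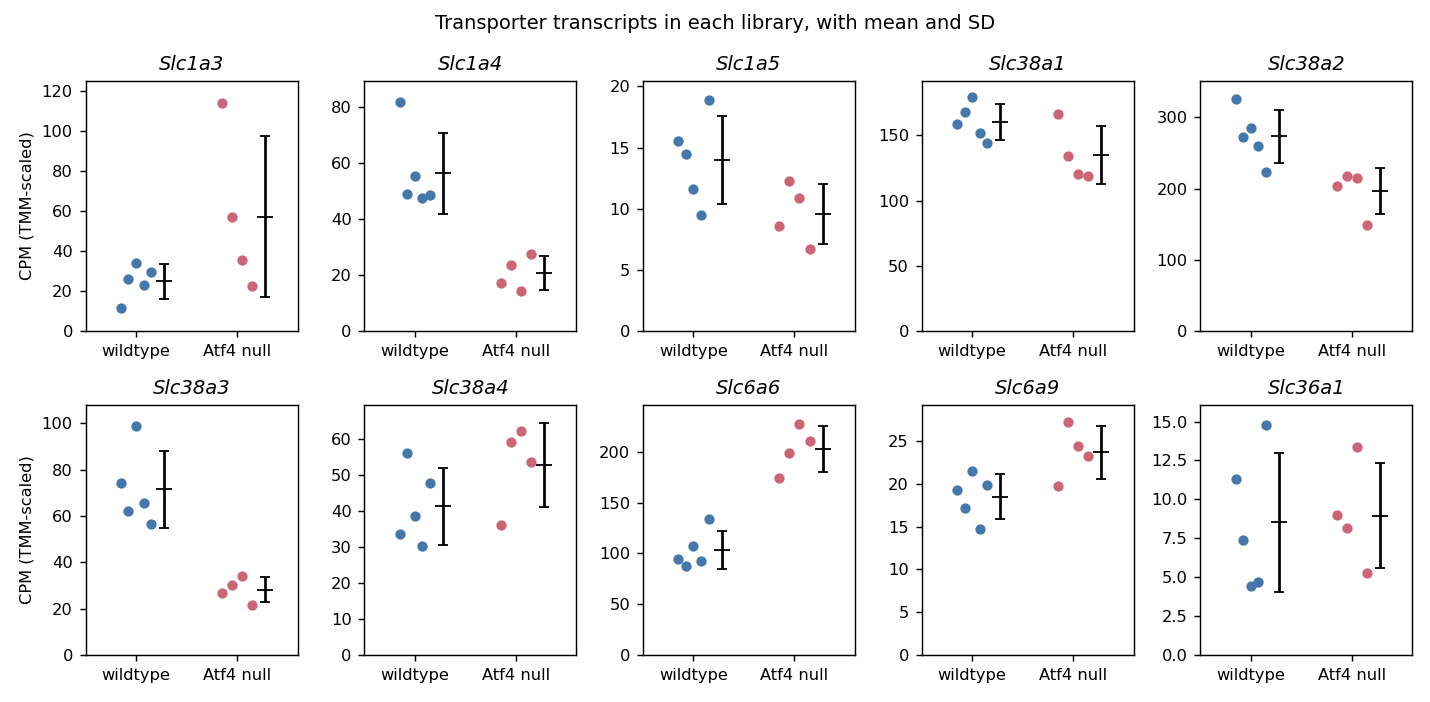
TMM-scaled CPM of each transporter in each library (points), with the mean and SD of each genotype (bars), for 5 wildtype and 4 Atf4 null libraries; each panel starts at 0 and has its own scale. The genotypes separate without overlap for Slc1a4, Slc38a2 and Slc38a3, which are lower in null lenses, and for Slc6a6, which is higher.

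The DNA around the transcription start was searched for TGATGNAA, where N is any base, and for its special case TGATGCAA, on both strands from 1000 bases before to 2000 bases after the start of the canonical transcript. TGATGNAA lay in this window for 6 of the 10 transporters and for 27.4% of the 12851 protein-coding genes tested. TGATGCAA lay there for 4 transporters, *Slc1a4*, *Slc38a1*, *Slc38a2* and *Slc6a9*, and for 6.05% of those genes. These 4 sites are shown because they carry the full element, read along each gene's strand from GRCm39, with the element or its reverse complement TTGCATCA in capitals.
Slc1a4, chr11:20282699-20282728, minus strand: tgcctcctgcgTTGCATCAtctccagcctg
Slc38a1, chr15:96540316-96540345, minus strand: tggggggaaacTGATGCAAccagccctggg
Slc38a2, chr15:96597047-96597076, minus strand: gcccctcggtaTTGCATCAgttcctcccgg
Slc6a9, chr4:117692582-117692611, plus strand: cctcgggaggcTGATGCAActttcccttta
The *Slc1a4* site begins at base 58 of the transcript in untranslated exon 1, the *Slc38a1* site begins 56 bases upstream of the start, the *Slc38a2* site lies in intron 1 at base 563, and the *Slc6a9* site lies in untranslated exon 1 at base 346. Of the 3 transporters that passed the test, only *Slc1a4* held either form of the element in the window, and *Slc38a3* and *Slc6a6* held neither. A match shows only that these letters are present.

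The SLC1 family held the transporter with the most negative fold change over all 9 libraries, *Slc1a4*. The log2 fold change of *Slc38a3* was the more negative one without wildtype replicate 1 (-1.33 against -1.27) and without null replicate 3 (-1.45 against -1.30). *Slc1a4* (ENSMUSG00000020142, chr11:20252180-20282774, minus strand) encodes ASCT1, an exchanger of serine, alanine and other small neutral amino acids. It stood at 81.5, 48.7, 55.2, 47.3 and 48.6 CPM in wildtype replicates 1 to 5 and at 17.04, 23.8, 14.5 and 27.7 CPM in null replicates 1 to 4. Every null library lay below every wildtype library, and the highest null value was well under the lowest wildtype value. The mean was 56.3 ± 14.4 CPM in wildtype (SD, n = 5) and 20.7 ± 6.05 CPM in null lenses (SD, n = 4), 2.72-fold lower in the null. The log2 fold change was -1.44 (SE 0.23, edgeR adjusted p = 0.00248), and the exact two-sided permutation test over the libraries gave p = 0.0079, the smallest it can give. Of the wildtype libraries, replicate 1 stood above the others, and without it the log2 fold change was -1.27 (edgeR adjusted p = 0.00642). Under each of the 17 alternatives *Slc1a4* passed the threshold, with log2 fold changes from -1.61 to -1.27. In whole lenses a smaller share of the cells that use a gene and less of its RNA per cell cannot be told apart. Over all tested markers the median log2 fold change was -0.45 for lens fiber and -0.61 for lens epithelium. The 4 fiber markers that fell had values from -1.89 to -1.17 and the 5 epithelial markers that fell from -3.68 to -0.63, and their part in the fall of *Slc1a4* was not tested.

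The 250 bases upstream of the *Slc1a4* start are shown as the DNA next to the element in its exon 1, with capitals for each GC box, GGGCGG, and each CCAAT box on either strand.
Slc1a4, chr11:20282775-20283024, minus strand: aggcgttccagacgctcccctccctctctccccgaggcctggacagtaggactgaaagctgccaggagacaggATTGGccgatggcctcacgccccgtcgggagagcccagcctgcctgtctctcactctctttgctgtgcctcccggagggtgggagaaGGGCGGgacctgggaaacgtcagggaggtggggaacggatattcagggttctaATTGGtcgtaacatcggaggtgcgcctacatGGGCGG
This stretch held 2 GC boxes and 2 CCAAT boxes, which read as ATTGG on the strand shown, and had a GC content of 63.2% against a median of 57.2% over the same stretch of the 12851 genes. A CCAAT box was present in 5 of the 10 transporters and 36.3% of all genes. A GC box was present in 5 of the 10 and 50.2% of all genes, and the sequence TATAAA in 2 of the 10 and 6.96%.

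*Slc1a5* (ENSMUSG00000001918, chr7:16515265-16532731, plus strand) encodes ASCT2, the exchanger through which many dividing cells take up glutamine. It was one of the lowest of the 10 in CPM, at 15.5, 14.4, 11.6, 9.49 and 18.8 in wildtype and 8.57, 12.2, 10.9 and 6.70 in null lenses. The genotypes overlapped, since 2 null libraries lay above the lowest wildtype library. The log2 difference of -0.54 (SE 0.28) missed the threshold (edgeR adjusted p = 0.313, exact permutation p = 0.0714).

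*Slc1a3* (ENSMUSG00000005360, chr15:8663604-8741595, minus strand) encodes GLAST, a sodium-coupled glutamate transporter best known from glia, including the Müller glia of the retina. Its CPM were 11.4, 26.0, 34.3, 22.9 and 29.7 in wildtype and 114, 56.9, 35.4 and 22.9 in null lenses. The null libraries were spread over the whole range from the wildtype values upward, with replicate 1 far above and replicate 4 inside the wildtype range. The log2 fold change of 1.21 (SE 0.40) had the largest absolute value among the transporters that missed the threshold (edgeR adjusted p = 0.104, exact permutation p = 0.103). It was 0.62 without null replicate 1 (edgeR adjusted p = 0.353) and 1.46 without null replicate 4, when it passed (edgeR adjusted p = 0.0338). With no filter on low counts it passed as well (edgeR adjusted p = 0.00850). The summed neural retina markers were highest in the same null replicate 1 and, among null libraries, lowest in replicate 4, whose 0.0434% lay within the wildtype range. The order differed between null replicates 2 and 3, with 0.0839% and 0.0985% of retina markers, and in wildtype, where *Slc1a3* was highest in replicate 3 and the retina markers in replicate 5. The part of retinal RNA in the level of *Slc1a3* was not tested.

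**Figure D2:**
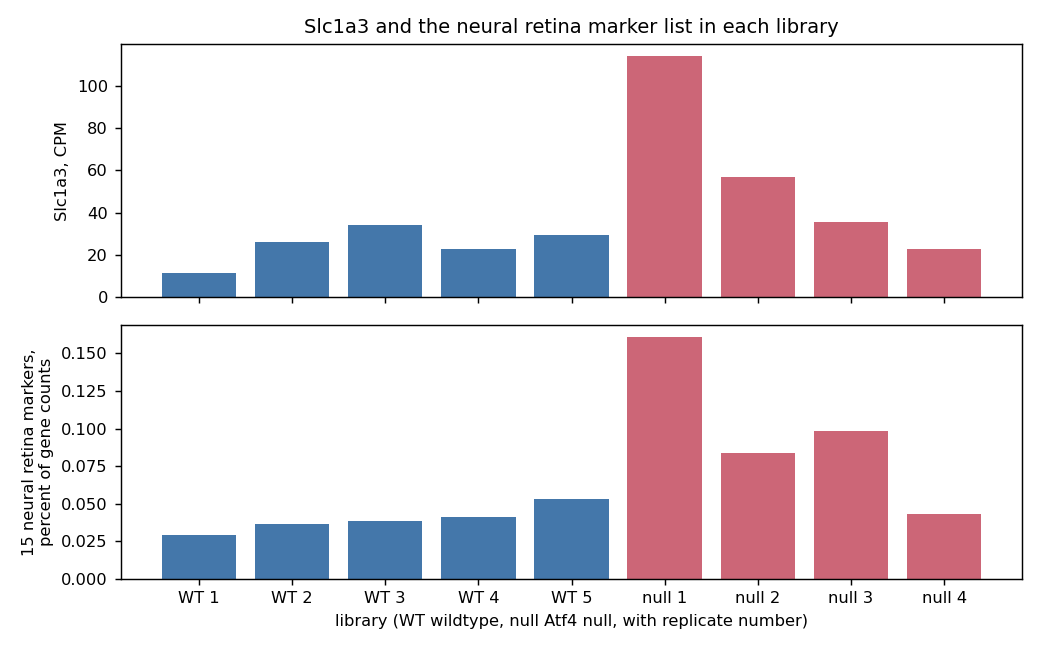
CPM of Slc1a3 (upper bars) and the 15 neural retina markers as a percent of gene counts (lower bars) in each of the 9 libraries, both from 0. Null replicate 1 is highest in both, at 114 CPM and 0.161%, and null replicate 4 is lowest of the null libraries in both, at 22.9 CPM and 0.0434%.

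Of the SLC38 family, whose members supply glutamine and other neutral amino acids, *Slc38a3* fell. *Slc38a3* (ENSMUSG00000010064, chr9:107527815-107547018, minus strand) encodes SNAT3, a carrier that couples glutamine to sodium entry and proton exit. Its CPM were 74.2, 62.0, 98.9, 65.7 and 56.4 in wildtype and 26.9, 29.995, 34.1 and 21.4 in null lenses. The 2 sets were far apart, with no null library above the lowest wildtype one. The mean went from 71.4 ± 16.7 CPM (SD, n = 5) to 28.1 ± 5.35 CPM (SD, n = 4), 2.54-fold lower, with a log2 fold change of -1.34 (SE 0.19, edgeR adjusted p = 0.00122). The exact permutation p was 0.0079, and all 17 alternatives kept the gene past the threshold at log2 fold changes from -1.45 to -1.20. The 250 bases upstream of its canonical start, shown for contrast with *Slc1a4*, held none of these 3 motifs and no TGATGNAA on either strand, so all letters are in lower case.
Slc38a3, chr9:107545182-107545431, minus strand: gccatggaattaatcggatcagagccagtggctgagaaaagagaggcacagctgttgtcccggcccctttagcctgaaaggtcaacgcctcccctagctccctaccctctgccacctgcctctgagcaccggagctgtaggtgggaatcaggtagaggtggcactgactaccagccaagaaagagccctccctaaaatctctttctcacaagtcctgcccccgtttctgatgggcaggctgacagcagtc
This stretch had 5 CpG pairs, against a median of 13 over all genes.

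*Slc38a2* (ENSMUSG00000022462, chr15:96585266-96597894, minus strand) encodes SNAT2, a carrier of small neutral amino acids whose amount is known to rise when amino acids are scarce. It was the most abundant of the 10 per length in wildtype, at 28.2 ± 3.83 FPKM (SD, n = 5). Its CPM were 325, 272, 285, 260 and 223 in wildtype and 203, 218, 215 and 149 in null lenses, so that all null values lay below all wildtype values, by a small margin at the nearest pair. The log2 fold change was -0.48 (SE 0.14) and missed the threshold after adjustment (edgeR adjusted p = 0.0696, exact permutation p = 0.0159). It passed in 4 of the 17 alternatives, among them the fit without wildtype replicate 5 (edgeR adjusted p = 0.0168) and DESeq2 (adjusted p = 0.0151), and had an adjusted p of 0.219 in the edgeR fit scaled by library size alone. Another of the 4, the fit with the replicate number as a block, also takes no genotype difference from wildtype replicate 5.

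*Slc38a1* (ENSMUSG00000023169, chr15:96469298-96541851, minus strand) encodes SNAT1, a glutamine carrier abundant in neurons. It stood at 159, 168, 179, 152 and 144 CPM in wildtype and 166, 134, 121 and 119 CPM in null lenses. Null replicate 1 lay among the wildtype values and the other 3 null libraries lay below them. Over all 9 libraries the log2 fold change was -0.25 (SE 0.12, edgeR adjusted p = 0.299, exact permutation p = 0.0794), and it was -0.11 when scaled by library size alone (edgeR adjusted p = 0.731).

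*Slc38a4* (ENSMUSG00000022464, chr15:96892693-96958593, minus strand) encodes SNAT4, a carrier of neutral amino acids whose gene is imprinted in mouse and best known from placenta and liver. Its CPM were 33.5, 56.0, 38.5, 30.3 and 47.5 in wildtype and 36.1, 59.2, 62.2 and 53.4 in null lenses. The genotypes overlapped, and the log2 fold change of 0.36 (SE 0.21) missed the threshold (edgeR adjusted p = 0.395, exact permutation p = 0.183). *Slc38a1*, *Slc38a2* and *Slc38a4* lie on the same strand of chromosome 15 in one stretch, and their fold changes had both signs.

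*Slc6a6* was the transporter that rose. *Slc6a6* (ENSMUSG00000030096, chr6:91660573-91736047, plus strand) encodes TauT, the sodium- and chloride-coupled carrier that brings taurine into cells. Its CPM were 94.7, 87.7, 107, 92.4 and 134 in wildtype and 175, 199, 228 and 211 in null lenses. Every null library was above every wildtype library, and the highest wildtype value came from replicate 5, the library with muscle and mesenchyme markers. The mean went from 103 ± 18.6 CPM (SD, n = 5) to 203 ± 22.3 CPM (SD, n = 4), a 1.97-fold rise, with a log2 fold change of 0.98 (SE 0.14, edgeR adjusted p = 0.00110). The exact permutation p was 0.0079, and the log2 fold change ran from 0.91 to 1.09 over the 17 alternatives, with all 17 past the threshold. Without wildtype replicate 5 it was 1.09 (edgeR adjusted p = 2.93e-05). Among the null libraries *Slc6a6* was lowest in replicate 1, where the retina markers were highest, and without that library the log2 fold change was 1.04 (edgeR adjusted p = 0.00137). In whole lenses a larger share of the cells that use *Slc6a6* and more of its RNA per cell cannot be told apart. All 15 retina markers had a log2 fold change above 0, and the part of retinal RNA in the level of *Slc6a6* was not tested. The 250 bases upstream of its canonical start are shown because they held none of the 4 motifs searched, while their 27 CpG pairs were above the third quartile of 19 over all genes.
Slc6a6, chr6:91660784-91661033, plus strand: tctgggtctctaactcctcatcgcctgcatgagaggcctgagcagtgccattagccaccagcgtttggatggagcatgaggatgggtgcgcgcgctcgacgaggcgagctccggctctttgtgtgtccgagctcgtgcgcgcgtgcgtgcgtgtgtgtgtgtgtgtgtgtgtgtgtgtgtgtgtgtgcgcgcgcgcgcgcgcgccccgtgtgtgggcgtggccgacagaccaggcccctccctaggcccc
Annotated noncoding genes lie on the opposite strand within *Slc6a6*, and the strand setting of the counting is not given in the sources used here.

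*Slc6a9* (ENSMUSG00000028542, chr4:117691703-117732395, plus strand) encodes GLYT1, which takes up glycine. It stood at 19.3, 17.2, 21.5, 14.7 and 19.9 CPM in wildtype and 19.7, 27.2, 24.5 and 23.3 CPM in null lenses. In 3 null libraries the level was above all wildtype values, and null replicate 1 lay inside their range. The log2 fold change was 0.36 (SE 0.19, edgeR adjusted p = 0.337), and the exact permutation test of this single gene gave p = 0.0476. *Ccdc24* and *B4galt2*, which are protein-coding, overlap *Slc6a9* on the opposite strand, so its counts are uncertain to that extent.

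*Slc36a1* (ENSMUSG00000020261, chr11:55095146-55127156, plus strand) encodes PAT1, a proton-coupled exporter of small amino acids from lysosomes. It was the lowest of the 10 in counts, from 36 to 138 per library. Its CPM were 11.3, 7.40, 4.45, 4.68 and 14.8 in wildtype and 8.97, 8.16, 13.4 and 5.24 in null lenses, and the null values all lay within the wildtype range. The log2 fold change of 0.07 (SE 0.41, edgeR adjusted p = 0.955) was smaller than its error, and its sign turned in 3 of the fits that left out 1 library.

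**Figure D3:**
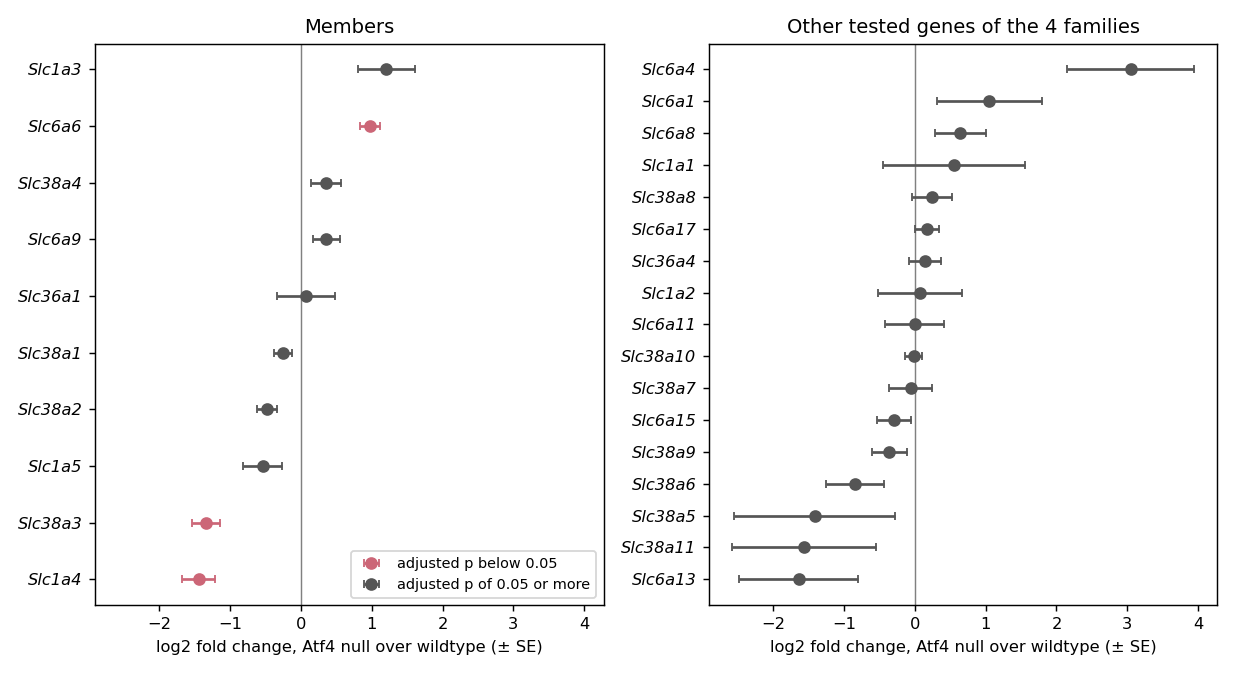
Log2 fold change of null over wildtype with its SE (bars) for the 10 transporters (left) and the 17 other tested genes of the same 4 families (right), with adjusted p below 0.05 in red. Slc1a4 and Slc38a3 sit near -1.4 and Slc6a6 near 1, and no other gene of either panel passed the threshold.

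Per length, the order of the transporters differed between the genotypes. In wildtype lenses *Slc38a2* led with 34.3% of the summed FPKM of the 10 genes, followed by *Slc1a4* with 16.4%. *Slc6a6* at 8.47 ± 1.53 FPKM, *Slc38a1* at 8.49 ± 0.724 FPKM, *Slc38a3* at 7.73 ± 1.80 FPKM and *Slc38a4* at 6.66 ± 1.71 FPKM (SD, n = 5) did not differ beyond their spread. The remaining *Slc6a9*, *Slc1a5*, *Slc1a3* and *Slc36a1* each had at most 3.71%. In null lenses the share of *Slc6a6* was 23.3%, against 10.4% in wildtype, which placed it next to *Slc38a2* at 28.0%. The share of *Slc1a4* was 7.09% in null lenses and that of *Slc38a3* went from 9.41% to 4.21%. In every null library *Slc6a6* held between 20.1% and 26.996%, above its highest wildtype share of 14.0%. *Slc1a3* ranged in null lenses from 2.44% to 10.98%, the latter in replicate 1. The summed FPKM was 81.9 ± 7.48 in wildtype (SD, n = 5) and 71.8 ± 5.59 in null lenses (SD, n = 4), so the ranges of mean and SD met. These shares depend on the length assigned to each gene. With the length of the canonical transcript, an alternative chosen after the values were seen, *Slc38a2* still led in wildtype with 36.4%, but *Slc1a4* with 8.77% came after *Slc38a1*, *Slc38a3* and *Slc6a6*.

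**Figure D4:**
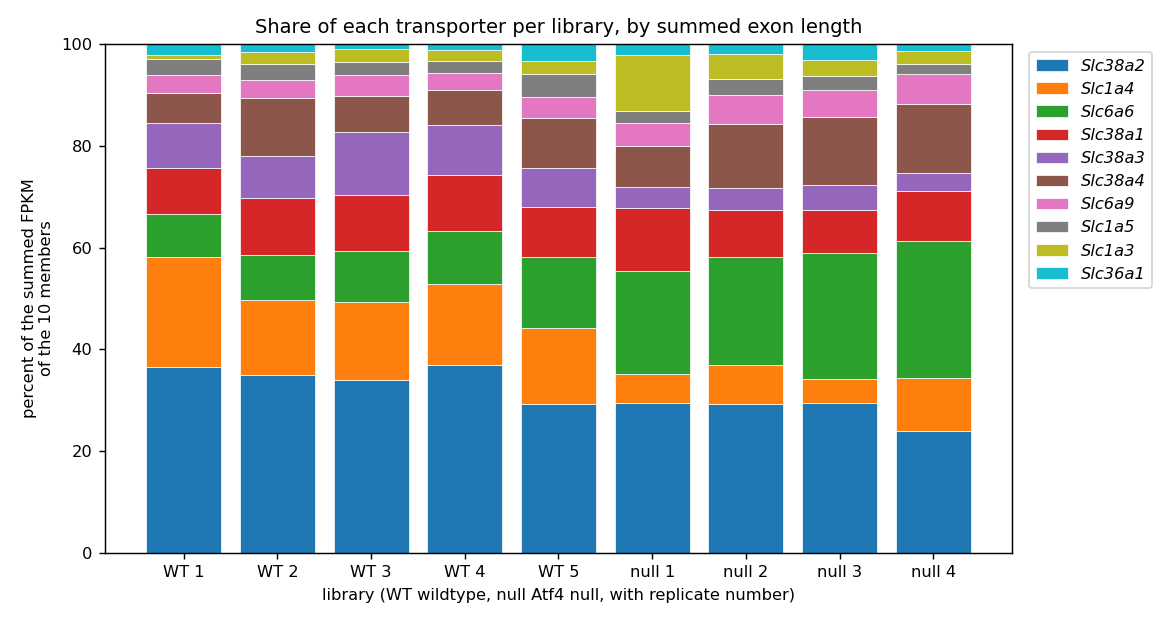
Percent of the summed FPKM of the 10 transporters held by each of them in each library, stacked to 100%, with summed exon length. The Slc6a6 segment covers 20.1% to 26.996% in the null libraries and at most 14.0% in wildtype, and the Slc1a4 segment covers 4.64% to 10.4% and 14.7% to 21.5%.

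Ratios of 2 transporters within a library do not depend on how libraries are scaled, so the 10 pairs of members of one family were compared by ratio of counts with 0.5 added to each. Of these, 6 pairs had ratios that did not overlap between the genotypes, and the same 6 passed an exact two-sided permutation test after adjustment over the 10 pairs. Pairs that share a gene are not separate results, and each of the 6 held *Slc38a3*, *Slc6a6* or *Slc1a3*. How often the ratios of other gene pairs separate the genotypes was not computed. The ratio of *Slc38a3* to *Slc38a4*, a glutamine carrier to a carrier of other neutral amino acids, was 2.21, 1.11, 2.56, 2.17 and 1.19 in wildtype and 0.746, 0.508, 0.549 and 0.401 in null lenses. In each wildtype library *Slc38a3* had more counts than *Slc38a4*, and in each null library fewer. The mean log2 ratio differed by -1.70 (exact permutation p = 0.0079, adjusted p = 0.0159), and missed the threshold without null replicate 4 at -1.56 (exact permutation, adjusted p = 0.0510). The ratio of *Slc38a1* to *Slc38a3* rose by 1.08 and that of *Slc38a2* to *Slc38a3* rose by 0.85 on the log2 scale, each with an exact permutation p of 0.0079 (adjusted p = 0.0159). Between *Slc38a1* and *Slc38a2*, the log2 ratio differed by 0.23 (exact permutation p = 0.214), and by 0.14 without null replicate 1.

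In the SLC1 family the ratio of *Slc1a3* to *Slc1a4* was between 0.141 and 0.622 in wildtype and 6.67, 2.39, 2.44 and 0.827 in null lenses. All wildtype libraries had more *Slc1a4* than *Slc1a3* counts, and 3 of the 4 null libraries had fewer. The log2 difference was 2.49 (exact permutation p = 0.0079, adjusted p = 0.0159), and it was 1.99 without null replicate 1. For *Slc1a3* to *Slc1a5* the log2 difference was 1.57 (exact permutation p = 0.0159, adjusted p = 0.0265). It was 1.11 without null replicate 1 and then missed the threshold (exact permutation, adjusted p = 0.0670), as it also did without null replicate 2 at 1.62 (exact permutation, adjusted p = 0.0595). The ratio of *Slc1a4* to *Slc1a5* differed by -0.91 with overlap between the genotypes (exact permutation p = 0.0476, adjusted p = 0.0595), and passed without null replicate 4 at -1.23 (exact permutation, adjusted p = 0.0357). In the SLC6 family *Slc6a6* had 4.91, 5.10, 4.97, 6.27 and 6.71 times the counts of *Slc6a9* in wildtype and 8.83, 7.29, 9.30 and 9.03 times in null lenses. The log2 difference of 0.63 had an exact permutation p of 0.0079 (adjusted p = 0.0159). It missed the threshold without null replicate 3 (exact permutation, adjusted p = 0.0595) and without null replicate 4 (exact permutation, adjusted p = 0.0510).

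**Figure D5:**
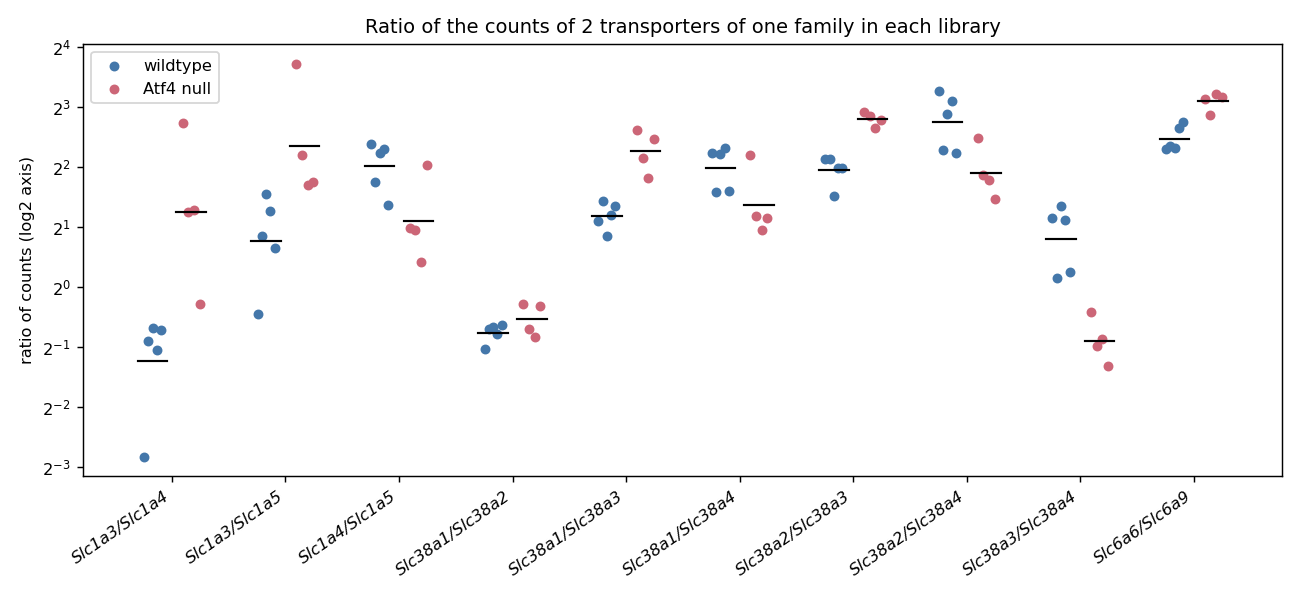
Ratio of the counts of 2 transporters of one family in each library (points, log2 axis), with the mean of each genotype (lines), for 10 pairs. The genotypes do not overlap for 6 pairs, each of which holds Slc38a3, Slc6a6 or Slc1a3. Among them is Slc38a3 to Slc38a4, where all wildtype ratios are above 1 and all null ratios below it.

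The same 4 families hold 33 other genes in the counts, of which 17 passed the low-count filter. By edgeR's quasi-likelihood test, 0 of these 17 passed the threshold (5.90% of all genes tested), and 1 had an unadjusted p below 0.05 (19.6% of all genes tested). Their median log2 fold change was -0.0029. The 3 of highest mean FPKM in wildtype were *Slc38a10*, *Slc6a17* and *Slc38a8*. *Slc38a10*, a family member with little known transport, stood at 23.3 ± 2.22 FPKM in wildtype (SD, n = 5) and 23.0 ± 3.09 FPKM in null lenses (SD, n = 4), with a log2 fold change of -0.02 (edgeR adjusted p = 0.965). *Slc6a17*, a vesicular carrier of neutral amino acids, and *Slc38a8*, a glutamine carrier of the eye and brain, had log2 fold changes of 0.17 and 0.24 (edgeR adjusted p = 0.660 and 0.723). That of *Slc6a17* was 0.05 without null replicate 4, and that of *Slc38a8* was -0.03 without null replicate 2. The gene with an unadjusted p below 0.05, *Slc6a4*, is named here after its values were seen. *Slc6a4*, the serotonin transporter, stood between 0 and 1.36 CPM in wildtype and at 5.98, 1.08, 3.95 and 4.51 CPM in null lenses (log2 fold change 3.05, SE 0.90, edgeR adjusted p = 0.0662). DESeq2 and edgeR's exactTest each called 1 of the 17, in both cases *Slc6a4*.

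Taurine enters cells through *Slc6a6* or is made from cysteine, and of 5 genes of taurine synthesis 3 could be tested, with 1 lower and 0 higher (3.67% and 2.23% of all genes tested). *Csad*, which encodes the decarboxylase of the main route, was the one that fell, from 31.6, 38.4, 44.2, 45.2 and 33.5 CPM in wildtype to 25.7, 22.2, 26.0 and 26.9 CPM in null lenses. The genotypes did not overlap, and the log2 fold change of -0.61 (SE 0.17) lay just past the threshold (edgeR adjusted p = 0.0497). It missed the threshold in 11 of the 17 alternatives, and over all 17 the adjusted p ran from 0.0171 to 0.139. Of the other tested genes *Ado* had a log2 fold change of 0.35, also without overlap (edgeR adjusted p = 0.148) and *Cdo1* one of -1.93 (edgeR adjusted p = 0.344), with 15.4 CPM in wildtype replicate 5 and at most 1.48 in the other wildtype libraries. The median of the 3 was -0.61. Without wildtype replicate 5 *Cdo1* no longer passed the low-count filter, and the median of the other 2 was -0.14.

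Of 7 genes of osmolyte control, to which *Slc6a6* is often counted, 6 could be tested, and 1 fell and 0 rose (3.67% and 2.23% of all genes tested), with a median log2 fold change of -0.23. By edgeR 4 of the 6, *Sgk1*, *Nfat5*, *Akr1b3* and *Hspa4l*, had an unadjusted p below 0.05 (19.6% of all genes tested). *Sgk1*, a kinase induced by cell shrinkage and steroid hormones, fell from 27.4 ± 6.42 CPM (SD, n = 5) to 13.4 ± 2.25 CPM (SD, n = 4), a log2 fold change of -1.03 (edgeR adjusted p = 0.0190). Its genotypes overlapped, because wildtype replicate 1 at 16.3 CPM lay below null replicate 2 at 16.7 CPM. It missed the threshold in 2 of the 17 alternatives, without null replicate 3 (edgeR adjusted p = 0.0615) and without wildtype replicate 4 (edgeR adjusted p = 0.0537). *Nfat5*, the transcription factor of the hypertonic response, stood at 309 ± 13.7 CPM in wildtype (SD, n = 5) and 245 ± 33.5 CPM in null lenses (SD, n = 4), and missed the threshold (edgeR adjusted p = 0.109). *Hspa4l*, a heat shock protein induced by hypertonic stress, had the one positive value of the list, a log2 fold change of 0.40 without overlap between the genotypes (edgeR adjusted p = 0.109). *Akr1b3*, the aldose reductase that makes sorbitol, had a log2 fold change of -0.59, also without overlap (edgeR adjusted p = 0.120), and *Slc5a3*, the inositol carrier, one of -0.11 (edgeR adjusted p = 0.874), which was 0.0951 without wildtype replicate 5.

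Glutamine and glutamate, the substrates of several of these carriers, are handled by 7 listed enzymes, all tested, of which 1 fell and 0 rose (3.67% and 2.23% of all genes tested), with a median log2 fold change of 0.03. *Asns*, which uses glutamine to make asparagine, stood at 20.9, 18.0, 23.1, 15.2 and 13.9 CPM in wildtype and 3.79, 8.88, 6.47 and 10.6 CPM in null lenses, without overlap. Its log2 fold change was -1.30 (SE 0.31, edgeR adjusted p = 0.0243), and 5 of the 17 alternatives, each without 1 library, took it to the other side of the threshold.

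For the 3 transporters that passed the test, the genes with the most similar level across the 9 libraries were sought among tested genes with a mean of at least 10 CPM, by the root mean square difference of log2 CPM centred on its mean. The measure takes in the difference between genotypes as well as the spread within them. Nearest to *Slc1a4* were *Pacsin3* at 0.191, *Gadd45g* at 0.193 and *Yars1*, the cytosolic tyrosyl-tRNA synthetase, at 0.204. Nearest to *Slc38a3* were *Mme*, the membrane peptidase neprilysin, at 0.169, *Txndc12* at 0.197 and *Ablim1*, an actin-binding protein, at 0.201. Nearest to *Slc6a6* were *Slc16a6* at 0.118, which belongs to the monocarboxylate transporter family, *Nifk* at 0.170 and *Fjx1* at 0.177. Each of the 6 genes near *Slc1a4* and *Slc38a3* had a log2 fold change between -1.49 and -1.01, and the 3 near *Slc6a6* had values from 0.79 to 1.09, which follows from the way they were chosen.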

How the data were processed

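Each library came from the lens RNA of 1 E16.5 embryo, so replicates are separate animals, 4 *Atf4* null and 5 wildtype. The authors trimmed reads with Trim Galore, removed ribosomal reads and aligned the rest to GRCm39 with HISAT2. The deposited values are whole counts per Ensembl gene from HTSeq, without normalization, and reads that align to several places or overlap several genes are not in them. HTSeq's summary entries, 44.6% to 47.7% of the reads of a library, were left out. Counts of any 2 libraries differed by a chi-square of at least 7.93 per degree of freedom (36 pairs), so none repeated another.

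Genes were matched to GENCODE vM39 (54749 of 55416, all but 0.033% of the counts). After filterByExpr and TMM scaling (factors 0.925 to 1.16) the genotypes were compared with edgeR 4.0.16 (quasi-likelihood test, no covariate, threshold 0.05 after Benjamini-Hochberg adjustment over 14903 genes), in a procedure tested on simulated data. The simulated data held no library with added RNA of other tissues, so they do not cover that case. Exact permutation tests were two-sided over all splits into 4 and 5, on mean log2 CPM or log2 ratio. Sequences were read from GRCm39.

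The genes named are the 10 transporters, *Atf4*, the 3 most abundant other genes of their families and any that passed the threshold, the genes of 3 lists that passed it, and the 3 nearest profiles of *Slc1a4*, *Slc38a3* and *Slc6a6*. *Slc6a4*, *Ado*, *Cdo1*, *Nfat5*, *Akr1b3*, *Slc5a3*, *Hspa4l* and the marker *Lim2* fall outside this rule and were named after their values were seen, and *Ccdc24* and *B4galt2* were named for their position. Members and lists were chosen with earlier results of these data known. Alternatives were DESeq2 1.42.0, exactTest, library size alone, TMM without crystallins, no low-count filter, a minimum of 10 counts per library, a robust fit, the replicate number as a block, a prior of 2 for ratios, and each library left out in turn. Replicate numbers follow the sample titles. Within the wildtype group the titles and the counts name the libraries differently, so wildtype numbers are uncertain, while genotypes are not.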

Additional observations from a re-analysis of the deposited data

Results flagged for a closer look

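In 2 of the 52 groups of libraries checked, 1 library stood apart from the rest of its genotype, where chance alone would give about 1 in 20 groups. *Slc1a4* stood at 81.5 CPM in wildtype replicate 1, while the other wildtype libraries had 47.3 to 55.2 CPM. *Sgk1* stood at 16.3 CPM in the same wildtype replicate 1, while the other wildtype libraries had 29.1 to 32.9 CPM.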

How the results depend on the processing

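*Slc1a4*, *Slc38a3* and *Slc6a6* kept their direction and passed the threshold in all 17 alternatives, and between 3 and 4 transporters were called in each. The number of genes called, 880 in all, was 1397 with DESeq2 and ran from 527 to 1207 with 1 library left out. DESeq2 and exactTest each called 1 other gene of the families. Scaling by library size alone moved the median log2 fold change of all genes to 0.12 and the calls from 333 higher and 547 lower to 790 higher and 439 lower, and gave *Slc38a10* a log2 fold change of 0.0999. With 1 library left out, the log2 fold change ran from -0.198 to 0.367 for *Slc36a1*, from -0.107 to 0.0516 for *Slc38a10*, from -0.0331 to 0.414 for *Slc38a8* and from 0.0476 to 0.269 for *Slc6a17*. The log2 difference of ratios ran from 1.11 to 1.79 for *Slc1a3* to *Slc1a5*, from 0.59 to 0.71 for *Slc6a6* to *Slc6a9* and from -1.86 to -1.56 for *Slc38a3* to *Slc38a4*. The last 2 missed the threshold only without null replicates 3 or 4 and without null replicate 4. With 4 libraries in a group the smallest possible exact p is larger when 1 is left out, and apart from this and from there being fewer libraries the cause was not tested. The replicate number did not pair the libraries (correlations of same-numbered libraries -0.131 to 0.00802). With it as a block 852 genes were called, and *Slc38a2* passed at -0.55 (edgeR adjusted p = 0.0280). In that fit wildtype replicate 5 is alone in its block and adds nothing to the genotype difference. It is therefore not separate from the fit without wildtype replicate 5. Low counts limit *Slc36a1* and *Slc6a4*.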
